A study of Homo sapiens with 2 samples.

Results

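The long arm of chromosome 17 (17q) carried DEK-bound regions at a higher density than the rest of the genome in both ChIP-seq libraries of 786-O cells. Its members were the deposited peaks on chromosome 17 from 27000000 onward (hg38), which were 925 of 19015 peaks in replicate 1 and 1159 of 24457 peaks in replicate 2 on chromosomes 1 to 22 and X. Where peaks of both replicates overlapped, by 1 bp or more, they were joined, which gave 643 shared regions on the arm of 12590 in all. The arm was read as the 56.2 Mb from 27 Mb to the last annotated gene end at 83240804. The first peak inside the boundary lay at chr17:27294839-27295181 in replicate 1 (fold enrichment 3.43) and at chr17:27294844-27295219 in replicate 2 (4.09). The last peaks outside it lay at chr17:26885234-26885904 (3.98) and chr17:26885264-26885903 (3.49), and all 4 were shared. The arm and its window from 43 to 44 Mb were chosen from the density of these same regions, so that density is given as a description without a test.

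786-O is an established human renal carcinoma line. Both libraries were prepared from wild-type 786-O cells with an antibody entry of DEK, and both were labelled as a negative control in an experiment whose sample descriptions name Cas9. It is not stated whether this describes the cells or the precipitation, and the term DEK region assumes that DEK was precipitated from control cells. Samples of edited cells, of input or of another antibody were not analysed here, and nothing says that the 2 replicates were separate cultures, so their spread may be technical.

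DEK is an abundant nuclear protein that binds DNA and histones and acts as a histone chaperone. It is best known from the DEK-NUP214 fusion of acute myeloid leukaemia, and it is described as recognising DNA structure more than a fixed sequence. The arm 17q holds the HOXB and type I keratin clusters, the ERBB2 region, BRCA1, and the tandem array of genes for U2 small nuclear RNA (U2 snRNA), the spliceosomal RNA that pairs with the branch point of introns. U2 genes are near-identical copies transcribed by RNA polymerase II.

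DEK region summits fell within promoter windows of several well-known genes of the arm, and 7 of these promoters are shown because the letters beneath the summits can be read in them. A promoter window here is the stretch from 250 bases before to 50 bases after a RefSeq gene start (GRCh38.p14), and the 250 bases before the start are printed 5′ to 3′ on the strand of the gene. Capitals mark CCAAT boxes (CCAAT, or ATTGG on the other strand) and GC boxes (GGGCGG, or CCGCCC on the other strand), and matches may overlap each other.
TOP2A, minus strand, chr17:40417897-40418146: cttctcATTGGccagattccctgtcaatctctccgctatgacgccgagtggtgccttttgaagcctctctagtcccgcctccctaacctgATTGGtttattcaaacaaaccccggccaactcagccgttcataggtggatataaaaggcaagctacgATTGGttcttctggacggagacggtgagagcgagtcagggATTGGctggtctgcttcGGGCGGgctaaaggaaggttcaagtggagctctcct
CDC6, plus strand, chr17:40287629-40287878: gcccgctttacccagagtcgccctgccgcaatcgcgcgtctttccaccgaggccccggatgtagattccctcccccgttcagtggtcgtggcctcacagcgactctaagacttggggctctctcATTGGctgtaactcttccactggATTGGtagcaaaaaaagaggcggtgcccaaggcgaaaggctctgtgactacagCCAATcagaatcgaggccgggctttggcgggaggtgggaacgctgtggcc
STAT3, minus strand, chr17:42388443-42388692: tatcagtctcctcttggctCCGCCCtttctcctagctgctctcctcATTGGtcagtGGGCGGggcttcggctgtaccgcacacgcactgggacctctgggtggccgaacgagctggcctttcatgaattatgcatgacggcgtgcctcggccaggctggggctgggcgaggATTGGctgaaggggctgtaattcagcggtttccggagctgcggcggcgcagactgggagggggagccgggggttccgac
SP2, plus strand, chr17:47895986-47896235: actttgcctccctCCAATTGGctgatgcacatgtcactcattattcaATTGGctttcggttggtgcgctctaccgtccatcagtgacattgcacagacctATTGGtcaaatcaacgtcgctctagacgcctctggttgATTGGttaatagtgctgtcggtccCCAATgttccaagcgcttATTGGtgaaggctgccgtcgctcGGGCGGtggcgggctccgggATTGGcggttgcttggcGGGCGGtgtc
ATP5MC1, plus strand, chr17:48892537-48892786: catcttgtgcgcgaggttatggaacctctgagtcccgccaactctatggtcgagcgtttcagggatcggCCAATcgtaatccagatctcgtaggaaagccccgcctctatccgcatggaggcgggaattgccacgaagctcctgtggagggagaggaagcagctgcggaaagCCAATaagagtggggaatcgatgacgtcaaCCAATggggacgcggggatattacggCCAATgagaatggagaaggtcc
VMP1, plus strand, chr17:59707404-59707653: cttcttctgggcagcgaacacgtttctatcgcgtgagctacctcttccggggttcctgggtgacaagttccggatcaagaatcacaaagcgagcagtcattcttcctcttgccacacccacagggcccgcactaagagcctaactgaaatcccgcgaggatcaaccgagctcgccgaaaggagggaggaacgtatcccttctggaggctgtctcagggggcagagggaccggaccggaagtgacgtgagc
DHX8, plus strand, chr17:43483725-43483974: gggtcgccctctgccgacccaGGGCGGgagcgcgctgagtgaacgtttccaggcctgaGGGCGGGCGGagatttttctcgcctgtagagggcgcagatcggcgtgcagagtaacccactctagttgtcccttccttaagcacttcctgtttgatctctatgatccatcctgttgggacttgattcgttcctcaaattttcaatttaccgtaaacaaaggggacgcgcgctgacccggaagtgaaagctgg

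SP2, which encodes a transcription factor of the Sp family, had 8 CCAAT matches in the printed stretch, 2 of them sharing letters in a palindrome, and 2 GC boxes. TOP2A, the gene of the topoisomerase that untangles chromosomes in dividing cells, and ATP5MC1, the gene of a membrane subunit of ATP synthase, had 4 CCAAT matches each. CDC6, a licensing factor of DNA replication, had 3, and STAT3, a transcription factor of cytokine signalling, had 2 beside 2 GC boxes. The promoter of DHX8, a splicing helicase, had 3 GC box matches and no CCAAT match, and that of VMP1, an autophagy gene, had neither. The summit of the shared region lay 49 bp upstream of the start of TOP2A, 93 bp upstream for DHX8, 104 bp for VMP1, 124 bp for CDC6, 133 bp for ATP5MC1, 186 bp for STAT3 and 229 bp for SP2.

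A shared summit fell in 52 of the 1166 promoter windows of the arm (4.46%), against 2.17% of the 34961 windows on all chromosomes. Of these 52 windows, 34 (65.4%) held a CCAAT box, against 35.6% of all windows on the arm and 34.6% on all chromosomes. Some windows overlap, and the 52 windows rested on 40 distinct regions, of which 25 (62.5%) had a CCAAT box in such a window. Over all chromosomes the 759 windows with a shared summit had a CCAAT box in 67.9%, a share close to that of the arm. GC boxes were in 31 of the 52 windows (59.6%), against 51.2% on the arm and 45.0% on all chromosomes. A TATA box (TATAAA or TTTATA) was in 4 of 52 (7.69%), against 11.5% on all chromosomes. An octamer (ATTTGCAT or ATGCAAAT) was in none, against 1.37% of the arm's windows and 1.77% on all chromosomes. The windows with a summit had a median GC content of 58.0%, against 61.3% for all windows of the arm, and the median CpG count was 18 in both. The part of base composition in these shares was not tested, and a match is a string of letters and not a bound site.

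**Figure D1:**
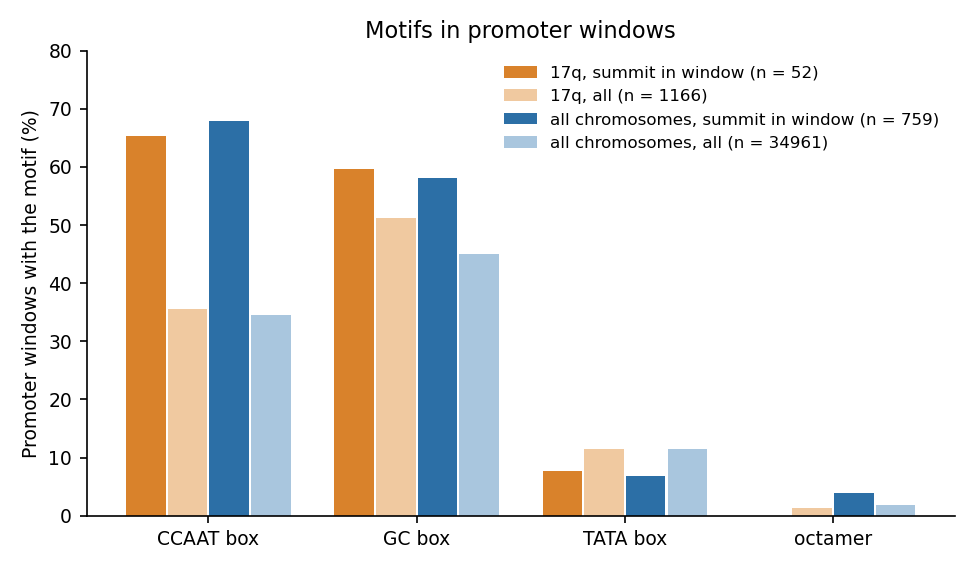
Share of promoter windows (y axis, percent) that hold each motif, for windows of 17q with a shared DEK summit (n = 52), all windows of 17q (n = 1166), windows on all chromosomes with a shared summit (n = 759) and all windows (n = 34961). The CCAAT bars stand at 65.4% and 67.9% with a summit and at 35.6% and 34.6% over all windows.

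The arm held 16.4 peaks per Mb in replicate 1 and 20.6 in replicate 2, against 6.28 and 8.07 over all chromosomes and 6.08 and 7.84 outside 17q. Shared regions numbered 11.4 per Mb on the arm and 4.16 per Mb over all chromosomes. The same chromosome below 27 Mb had 7.26 per Mb, and chromosome 19 had 10.4. These spans, like the one over all chromosomes, include centromeres, and that of the arm does not. Protein-coding genes were also dense on the arm, at 14.7 per Mb against 6.59 over all chromosomes. Per 100 protein-coding genes the arm had 77.9 shared regions against 63.0 over all chromosomes, a smaller difference than that per Mb.

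Individual peaks of the arm had lower fold enrichments than peaks over all chromosomes, but not lower −log10 q. The authors' fold enrichment is read here as summit height over local background, within the same library on the assumption that no control was used. Its medians on the arm were 3.75 (replicate 1) and 3.69 (replicate 2), against 3.99 and 3.89 over all chromosomes. The highest peaks of the arm reached 7.13 and 7.35, where the maxima over all chromosomes were 34.5 and 34.7. Of the arm's peaks, 8% in replicate 1 and 7.51% in replicate 2 had a fold enrichment of at least 5, against 14.3% and 12.9%. Fold enrichment of at least 5 in both replicates was met by 32 of the 643 regions, against a background of 10.3% of all shared regions. A −log10 q of at least 5 in both was met by 264 of the 643 regions, against 38.6% of all. Among single peaks it was met by 41.4% and 41.6% on the arm, against 40.6% and 39.5%. Median −log10 q was 4.49 and 4.53 on the arm, against 4.45 and 4.38. The summit pileup counts the fragments that overlap at the summit and was solved from the deposited fold enrichment and p. Its median was 22 on the arm and 19 over all chromosomes in each library. The local background solved the same way had a median of 264 and 311 reads per 10 kb at the arm's peaks, against 219 and 246. Higher pileups thus stood beside a higher background on the arm, and the part of the background in the peak density was not tested.

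Sharing between replicates was slightly more frequent on the arm than over all chromosomes. Of the arm's peaks, 71.8% in replicate 1 (95% Wilson interval 68.8 to 74.6) and 56.3% in replicate 2 (53.5 to 59.2) overlapped a peak of the other library, against backgrounds of 67.8% and 52.2%. The intervals cover counting error only, and reads without molecular identifiers need not be independent molecules. Stronger peaks were shared more often. When all peaks of a library were ranked by −log10 q and cut into 4 classes of equal size, 51.9% and 27.9% of the arm's peaks in the lowest class were shared, and 94.1% and 89.3% in the highest. Between replicates the Spearman coefficient over the 643 regions was 0.657 for fold enrichment and 0.842 for pileup. These are correlations across regions of the same libraries, which share local depth. The median absolute log2 ratio of fold enrichment between replicates was 0.16, and 316 of the 643 regions were higher in replicate 2. By this ratio neither library was systematically stronger in the shared regions. Replicate 2 still had more peaks on the arm, 1159 against 925. Its shared regions had a higher median pileup (25 against 23) and median background (333 against 280 reads per 10 kb). Summits of the replicates lay a median of 73 bp apart.

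**Figure D2:**
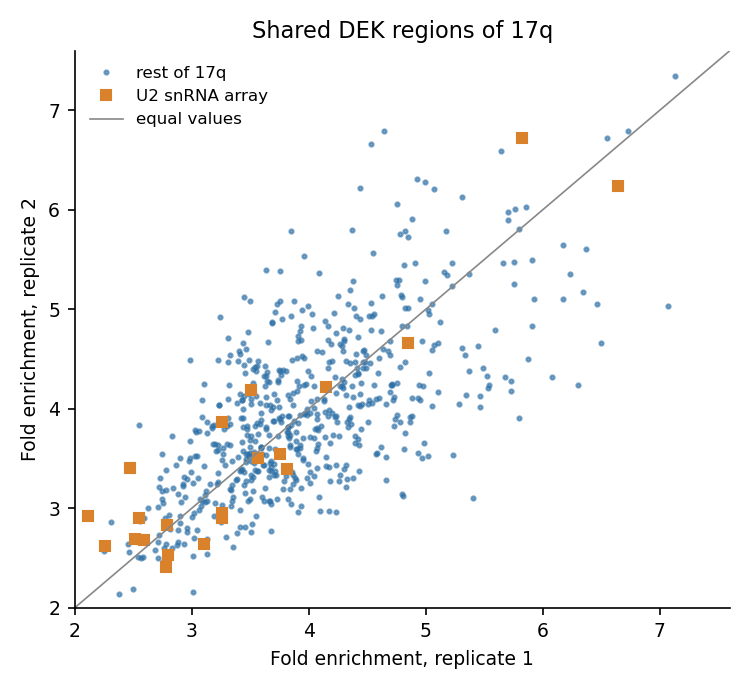
Fold enrichment of each of the 643 shared regions of 17q in replicate 1 (x axis) and replicate 2 (y axis), with the 21 regions of the U2 snRNA array as squares and the line of equal values. Most array regions lie at the low end, with medians of 3.26 and 2.95, and 2 of them exceed 5 in both replicates.

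In 1 Mb windows the DEK regions of the arm formed dense stretches separated by poor ones. The 57 windows had a median of 10 shared regions (interquartile range 5 to 17), against a median of 2 over the 3043 windows of all chromosomes. At least 20 shared regions were found in 8 of the 57 windows, against a background of 2.53%, and none in 2 windows, those starting at 34 and 52 Mb, against a background of 28.9%. The window from 43 to 44 Mb had 38 shared regions and ranked at 4 among all windows, the highest of which had 62. Next on the arm were the windows starting at 81 Mb with 26, at 50 Mb with 23 and at 77 Mb with 22, and those starting at 41, 76, 78 and 82 Mb had 21 each. Peak numbers per window in replicates 1 and 2 had a Spearman coefficient of 0.963 over the 57 windows, each of which is the same stretch of DNA in both libraries.

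**Figure D3:**
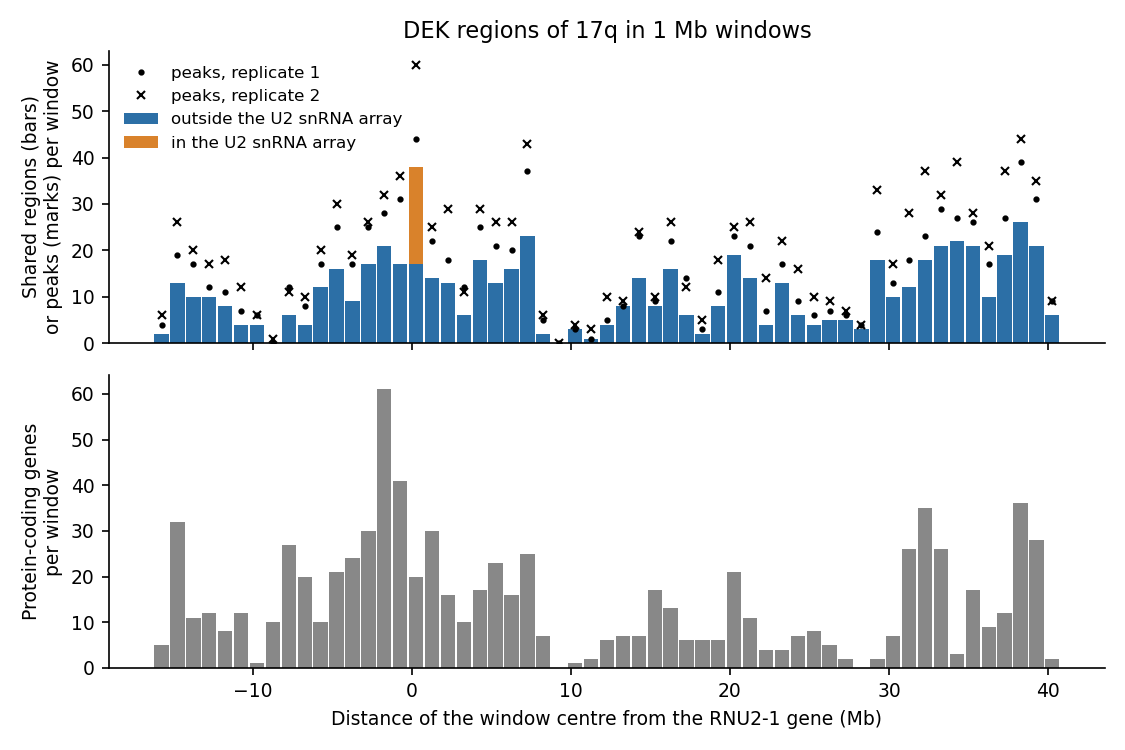
Shared DEK regions (bars) and peaks of each replicate (marks) in 1 Mb windows of 17q (top) and protein-coding genes in the same windows (bottom), by distance from the RNU2-1 gene in Mb. The tallest bar, 38 shared regions, holds 21 regions of the U2 snRNA array and 17 others, and a window near the end of the arm, on the right, reaches 26.

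The end of the arm was its longest dense stretch. From 75 to 83 Mb there were 158 shared regions, 24.6% of those of the arm, with 10 to 26 in each window and 166 protein-coding genes. From 40 to 43 Mb there were 55 shared regions among 132 protein-coding genes. The poorest stretch ran from 51 to 57 Mb, with 18 shared regions and 23 protein-coding genes, and held the largest gap of the arm, 2506 kb from 51121912 to 53628298. From 33 to 37 Mb, which includes the CC chemokine cluster, 14 shared regions stood among 58 protein-coding genes. Neighbouring shared regions of the arm lay a median of 35.6 kb apart, against 58.3 kb over all chromosomes.

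The number of shared regions followed the number of protein-coding genes loosely, with a Spearman coefficient of 0.632 over the 57 windows and 0.600 over all windows. The number of shared regions also moved with the local background, with Spearman coefficients of 0.695 in replicate 1 and 0.756 in replicate 2 over the 55 windows that have both. This background was solved at the peaks themselves. If no control was used, it can include reads of a peak and its neighbours and so rise where regions cluster. Windows share the 2 libraries and their depth, and no test was made. Some windows departed from the gene count. The window starting at 41 Mb, in the keratin clusters, had 61 protein-coding genes and 21 shared regions. The window starting at 77 Mb had 3 protein-coding genes and 22 shared regions, and that starting at 72 Mb had 2 and 18. Their median backgrounds were 457 and 514 reads per 10 kb at 77 Mb and 360 and 407 at 72 Mb.

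**Figure D4:**
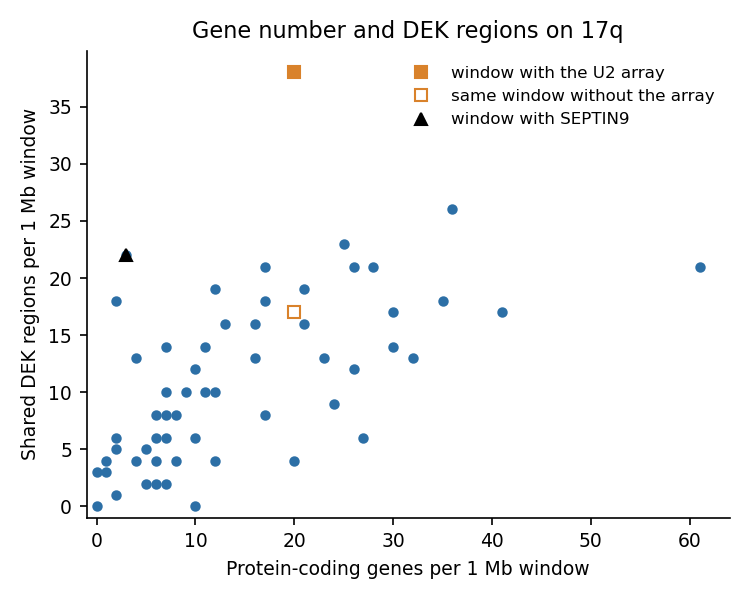
Shared DEK regions (y axis) against protein-coding genes (x axis) in the 57 windows of 17q, each point 1 window. The window of the U2 array falls from 38 to 17 regions when the array is left out, and the window of SEPTIN9 has 22 regions with 3 genes.

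Most shared regions of the densest window lay in the U2 snRNA array or within 2.5 kb of it. The array is annotated as 13 copies from RNU2-1 at chr17:43233790-43233977 to the copy LOC124904144 at chr17:43300041-43300231, over 66.4 kb. With 2.5 kb on either side it held 24 peaks of replicate 1 and 26 of replicate 2, of which 21 each were shared, in 21 shared regions. These were 55.3% of the window's 38 regions and 3.27% of those of the arm, on 0.127% of its length. Shared regions overlapped 12 of the 13 copies, and all 13 had 1 within 1 kb of an end. Of the 21 regions, 12 overlapped a copy and 9 did not, and the summits of 8 of these 9 lay 951 to 2148 bp below the start of the next copy in coordinate order. Of 19 snRNA genes on the arm, 14 had a shared region at an end, against a background of 22.7%, and 13 of the 14 were copies of this array, which had been chosen for its density.

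Array regions had high pileups and a high background, and a low ratio of pileup to background. Fold enrichment in the array ranged from 2.12 to 6.65 in replicate 1, with a median of 3.26, and from 2.42 to 6.72 in replicate 2, with a median of 2.95. The 622 regions of the arm outside the array had medians of 3.87 and 3.91. Summit pileups in the array had medians of 46 and 53, against 23 and 25 in the rest of the arm. The background had medians of 789 and 896 reads per 10 kb in the array, against 275.5 and 329.5 in the rest of the arm, where 39 regions in replicate 1 and 40 in replicate 2 reached the lowest array value. The 17 other regions of the same window had medians of 297 and 325. In the array this background can include reads of neighbouring array regions. The sources used here do not give how reads that match several U2 copies were placed, so values of single copies are uncertain, and the part of repeated copies in the density was not tested.

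Within the array 2 regions stood above the others in both replicates. The region at chr17:43251588-43252280, over the copy LOC124904138, had a fold enrichment of 6.65 in replicate 1 and 6.24 in replicate 2 (6.44 ± 0.290, SD, n = 2) with pileups of 101 and 102. The region at chr17:43231770-43232696, on the low side of RNU2-1 and within 1 kb of the end of CCDC200, had 5.82 and 6.72 (6.27 ± 0.638, SD, n = 2) with pileups of 67 and 83. The region at the last copy, LOC124904144, followed with 4.85 and 4.66. At RNU2-1 itself the region at chr17:43233802-43234013 had 3.11 and 2.64, within the range of the other copies. The copies LOC124904140 (4.15 and 4.22), LOC124904146 (3.51 and 4.19), LOC124904135 (3.76 and 3.54) and LOC124904136 (3.26 and 3.87) had intermediate values. The lowest mean in the array was that of the region at chr17:43290450-43290751 over LOC124904145 (2.26 and 2.62), followed by chr17:43288147-43288688, 1904 bp below the same copy (2.12 and 2.92). The U2-like copy LOC124904147 and the pseudogene RNU2-4P, which lie apart from the array in the same window, had no shared region.

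**Figure D5:**
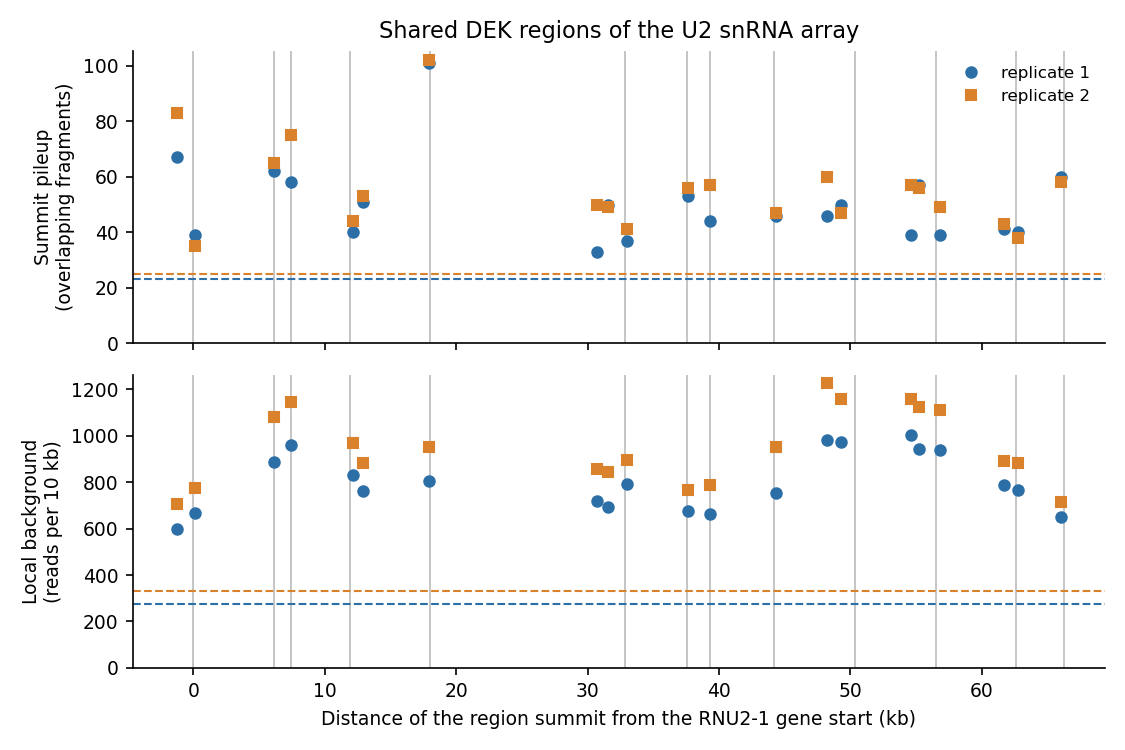
Summit pileup (top, overlapping fragments) and local background (bottom, reads per 10 kb) of the 21 shared regions of the U2 snRNA array in each replicate, by distance of the summit from the start of RNU2-1 in kb. Grey lines mark the 13 annotated copies and dashed lines the medians of the other 622 regions of 17q (23 and 25 for pileup), which all array regions exceed.

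Outside the array the window held 17 shared regions, as many as its neighbour from 42 to 43 Mb. RPL27, a ribosomal protein gene, had a region beyond its end with fold enrichments of 3.11 and 3.13 (3.12 ± 0.0129, SD, n = 2). The region at chr17:43170291-43170784 lay at the annotated starts of NBR1, an autophagy receptor gene, of the long non-coding RNA (lncRNA) LOC101929767 and of the longest span of the DNA repair gene BRCA1, with 3.64 and 3.79 (3.72 ± 0.109, SD, n = 2). A further region inside NBR1 at chr17:43171955-43172383 had 3.69 and 4.02. NBR2, which shares the better known promoter of BRCA1, had no peak in either library. DHX8 had 4.20 and 4.48 at its start (4.34 ± 0.193, SD, n = 2). LINC00910 had 4.17 and 3.41 at its start. Regions lay inside MPP3, a gene of a membrane scaffold protein (4.70 and 4.54), inside PYY, a gut hormone gene (4.04 and 4.01), and in the lncRNA LINC02594 (3.55 and 2.92) and LOC102724183 (4.19 and 4.66). The strongest of the 17, at chr17:43322899-43323699, had 5.86 and 6.03 and lay 23284 bp from the nearest annotated gene, the last U2 copy. IFI35, VAT1, RND2, TMEM106A, MEOX1, SOST, DUSP3, CD300LG, MPP2 and PPY had no peak in either library, and ETV4 had 1 in replicate 2.

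Genes of the arm were occupied more often than genes in general. Of 825 protein-coding genes, 114 (13.8%) had a shared region reaching within 1 kb of either end, against a background of 7.53%, and these rested on 107 distinct regions. At an end or inside, 272 genes were occupied, against 24.4%. Within 1 kb of a listed start, 74 of 579 genes (12.8%) were occupied, against 6.62%. By the position of the summit, 13.8% of the arm's regions lay at a protein-coding gene end (95% Wilson interval 11.4 to 16.7), against 8.66% over all chromosomes, and 52.7% lay inside a protein-coding gene, against 52.2%. Of these classes the larger difference was at gene ends. Of lncRNA genes, 43 of 490 (8.78%) had a region at an end, against 4.22%.

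The highest gene ends joined varied functions. WBP2, a transcriptional coactivator gene, had fold enrichments of 5.66 and 5.47 (5.57 ± 0.135, SD, n = 2). SLFN12, a Schlafen family gene, had 5.16 and 5.38, and ATP5MC1 had 4.85 and 5.73 (5.29 ± 0.623, SD, n = 2). SP2 had 4.78 and 5.76, and the nerve growth factor receptor gene NGFR had 5.03 and 4.95. PTRH2, a mitochondrial peptidyl-tRNA hydrolase gene, and VMP1 shared the region between their starts, which had 6.08 and 4.33 (5.20 ± 1.24, SD, n = 2), a wide spread between replicates. MXRA7 (5.68 and 4.32) and the hair keratin-associated gene KRTAP4-9 (6.17 and 5.11) were likewise higher in replicate 1. SYNGR2, a vesicle membrane gene, had 4.97 and 4.69, MAP3K3, a kinase of the MAP kinase cascade, had 4.82 and 4.47, and TUBG2, a gamma-tubulin gene, had 4.41 and 4.93.

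Away from gene ends, the strongest region of the arm lay inside LGALS3BP, which encodes a secreted galectin-binding glycoprotein, at chr17:78974924-78975397, with 7.13 and 7.35 (7.24 ± 0.153, SD, n = 2). The region at chr17:81886100-81886743, 1483 bp from the RNA export gene ALYREF, had 6.73 and 6.79 (6.76 ± 0.0434, SD, n = 2). The lncRNA MARCHF10-DT held a region with 6.55 and 6.72. OSBPL7, an oxysterol-binding protein gene (5.65 and 6.59), ANAPC11, a subunit of the anaphase-promoting complex (6.37 and 5.61), MYO18A, an unconventional myosin (6.18 and 5.65), and CCDC57 (5.76 and 6.01) each held another of the 10 highest regions. In this group the replicates were within 1 unit of fold enrichment of each other.

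SEPTIN9, which encodes a septin of the cytoskeleton and cytokinesis, held more shared regions than any other gene of the arm. It had 18 peaks of replicate 1, 23 of replicate 2 and 15 shared regions over 219 kb, or 6.85 per 100 kb, and its highest had 4.93 and 6.31 (5.62 ± 0.978, SD, n = 2). All 15 lay inside the gene, 7 of them within 1 kb of a listed alternative start, and none at its outer ends. PRKCA, a protein kinase C gene, and RPTOR, the mTORC1 scaffold gene, had 11 each over 508 and 422 kb. CUEDC1 and RBFOX3, a neuronal splicing factor gene, had 7 each. ITGB3, the integrin beta-3 gene, had 6 in 59.9 kb, or 10.0 per 100 kb. The zinc transporter gene SLC39A11 had 6 in 447 kb. Long genes have more room for regions, and length was not modelled.

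Other dense windows had their own sets of occupied ends. From 81 Mb, a region at the facing starts of TEPSIN and the complex I assembly gene NDUFAF8 had 3.94 and 4.69. P4HB, the protein disulfide isomerase gene, had 4.07 and 3.57, and a region inside SIRT7, a sirtuin gene, within 1 kb of the facing ends of SIRT7 and of MAFG, a small Maf factor gene, had 4.13 and 4.08. FAAP100 of the Fanconi anaemia core complex had 3.41 and 2.99, and SLC38A10 had 3.48 and 3.74. From 50 Mb, the median fold enrichments of 3.09 and 3.05 were the lowest among the windows with a shared region, beside backgrounds of 435 and 500 reads per 10 kb. The transporter gene ABCC3 held 5 shared regions there, the one at its end with 2.82 and 2.80 and the highest-ranked inside with 2.93 and 3.31, and PDK2, a pyruvate dehydrogenase kinase gene, had 2.38 and 2.14 at its start. ACSF2 had 4.40 and 3.66 and LUC7L3 had 3.73 and 3.09. From 41 Mb the occupied ends included KRTAP4-9, KRTAP2-3 (3.60 and 3.55), KRT36 (4.88 and 4.11) and P3H4 (3.53 and 3.56). At KRT36 only the replicate 2 peak of the joined region came within 1 kb of the gene. From 76 Mb they included FOXJ1, the factor of motile cilia (3.06 and 3.30), UBALD2 (3.83 and 3.77) and MXRA7. From 78 Mb they included SYNGR2, TK1 with AFMID (3.23 and 4.04) and SOCS3, an inhibitor of cytokine signalling (3.96 and 4.51). From 82 Mb they included CENPX (3.90 and 3.77), LRRC45 (3.60 and 3.96) and SLC16A3, the gene of the lactate exporter MCT4 (2.50 and 2.19).

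Several gene lists had larger shares of occupied ends than the arm as a whole. In the mitosis and cell cycle list, 10 of 27 genes had a region at an end (37.0%), beside 13.8% of the arm's protein-coding genes and the background of 7.53%. The list also holds proteasome genes, and the 10 included PSMD11 and PSMC5 of these. TOP2A had 4.98 and 4.23 (4.61 ± 0.526, SD, n = 2), with pileups of 24 and 20, and TLK2, a kinase of chromatin assembly, had 4.97 and 3.51. SKA2, a kinetochore gene, and PRR11 shared a start region with 3.88 in both replicates, and CEP131, a centrosome gene, held 1 inside with 6.35 and 5.18. CDC6 had 3.27 and 3.54, and the survivin gene BIRC5 had no peak in either library. In the genome maintenance list, 5 of 18 (27.8%) were occupied at an end (TOP2A, TLK2, BRCA1, HELZ with 3.86 and 3.25, and FAAP100). HELZ is not a genome maintenance factor, so 27.8% describes the list only. Inside the helicase gene RECQL5 the region had 4.48 and 4.47, and inside RAD51C, a recombination gene, 4.73 and 4.12. These lists overlap and were drawn up with earlier results of these data known.

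In RNA metabolism and translation, 6 of 23 members of the splicing and export list (26.1%) were occupied at an end. In the ribosomal and translation list 5 of 20 (25%) were. Both shares stand beside 13.8% on the arm and 7.53% over all chromosomes. The 6 included UTP6, DCAF7 and CCDC47, which are not splicing or export factors, so 26.1% describes the list only. UTP6, a gene of ribosomal RNA processing, had 4.59 and 4.36, and inside the splicing factor gene CWC25 the region had 5.88 and 4.50. DDX52, another RNA helicase gene, had 4.56 and 4.95 inside. The splicing factor gene SRSF2 had no peak. MRPS23 (4.43 and 3.64) and MRPL10 (3.31 and 3.91) of the mitochondrial ribosome and RPL23A (3.59 and 3.61) had regions at an end, and SRP68 of the signal recognition particle had 1 inside (3.87 and 4.04). The ribosomal S6 kinase gene RPS6KB1 had no peak.

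Metabolic genes were occupied at an end in 7 of 37 cases (18.9%), near the arm's 13.8% and above the 7.53% over all chromosomes. Beside ATP5MC1 and NDUFAF8, the gene of ATP citrate lyase, ACLY, held regions inside with 4.79 and 5.14 at the highest, and NMT1, a myristoyltransferase gene, with 4.75 and 6.06. The fatty acid synthase gene FASN had no peak. The end regions of SLC16A3 and PDK2 had low fold enrichments, at SLC16A3 beside backgrounds of 731 and 946 reads per 10 kb, and a further region inside PDK2 had 3.26 and 2.97. Of kidney development and transport genes, 6 of 19 were occupied at an end (31.6%, beside the same 13.8% and 7.53%). No peak was found at 10, a count without a share over all genes beside it. KCNJ16, a renal potassium channel gene, had 3.94 and 4.99, SLC35B1 had 3.85 and 4.93, and WNK4, a kinase of distal tubule salt handling, had 3.90 and 4.28. ACE, the angiotensin-converting enzyme gene, held a region inside with 5.54 and 4.24. SOX9 had no peak in either library.

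In the ERBB2 neighbourhood 6 of 29 genes were occupied at an end (20.7%, beside 13.8% on the arm and 7.53% over all chromosomes). No peak was found at 11, again without a share over all genes beside it. ERBB2 itself had 1 peak of replicate 1 and no shared region. WIPF2 had 4.66 and 4.04 at an end, and the sterol transporter gene STARD3 (4.04 and 4.81) and IGFBP4 (4.78 and 3.87) had regions inside. Chromatin and transcription genes were occupied at an end in 3 of 35 cases (8.57%). A further 12 had regions only inside, a count without a share over all genes beside it. Those inside SMARCD2, a SWI/SNF subunit gene (5.22 and 5.46), BPTF, a subunit of the NURF remodeller (5.02 and 5.00), TADA2A (4.52 and 4.94) and JMJD6 (4.42 and 4.73) were the highest. The histone H3.3 gene H3-3B had 3.01 and 2.91 at an end.

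Of 37 signalling genes, 4 were occupied at an end (10.8%, beside 13.8% on the arm and 7.53% over all chromosomes) and 17 only inside. Occupation only inside was also the larger class among occupied genes of the arm, where 114 of the 272 had a region at an end. These 272 stood among 825 protein-coding genes. Over all chromosomes 4875 of 19974 were occupied, 1504 of them at an end. No share of genes occupied only inside was computed, so inside-only counts describe the lists only. CSNK1D, a casein kinase gene, had 5.80 and 5.81 (5.80 ± 0.00916, SD, n = 2), AXIN2, a negative regulator of WNT signalling, had 6.24 and 5.36, and RPTOR had 5.18 and 5.35. STAT3 had 3 shared regions, 2 of them within 1 kb of an end. The higher-ranked of these 2, at its start, had 3.66 and 3.61 (3.63 ± 0.0369, SD, n = 2), and the region inside had 4.66 and 3.52. The neurofibromin gene NF1 held 3 inside, the highest-ranked with 3.96 and 5.54 (4.75 ± 1.11, SD, n = 2). Matrix, adhesion and cytoskeleton genes had 1 of 29 at an end (3.45%), P4HB, 14 only inside and 14 without a shared region. ITGB3 had 4.74 and 5.29 and ITGA3, an integrin of epithelia, had 2.88 and 2.78 beside backgrounds of 763 and 909 reads per 10 kb. COL1A1 had 1 peak of replicate 1 and no shared region.

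Few genes of the chemokine, HOXB, type I keratin and growth hormone clusters had a DEK region at an end, where 13.8% of the arm's protein-coding genes did and 7.53% over all chromosomes. None of 16 CC chemokine genes had a peak in either library. The share of all genes without a peak is not given here, so counts without a peak describe the lists only. In the HOXB cluster none of 10 genes had a region at an end, 7 had no peak, and HOXB3 held 1 region inside with 2.78 and 3.39. Type I keratin genes had 1 of 27 at an end, KRT36, where only the replicate 2 peak of the joined region came within 1 kb. A further 2 had a region inside, KRT32 (5.91 and 5.49) and KRT34 (3.76 and 5.09), and 24 had no peak. The 5 growth hormone cluster genes had no shared region. Immune cell genes had 1 of 26 at an end (3.85%), SLFN12, and CCR7, a chemokine receptor gene, held 1 inside with 5.00 and 6.28. Neuron and glia genes had 4 of 22 at an end (18.2%), near the arm's 13.8%, among them NGFR. RBFOX3 (4.54 and 4.94) and SDK2 (4.54 and 4.79) held regions inside. The clusters consist of short genes, with median lengths of 2.36 kb for the chemokines and 3.37 kb for HOXB, against 53.9 kb for the signalling list, and length was not modelled. In a list of 37 genes in and around the stretch from BRCA1 to MEOX1, which includes the dense window, 19 had a region at an end, 13 of them U2 copies.

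Small RNA genes other than U2 were occupied in a few places. Of 128 tRNA, microRNA and small nucleolar RNA genes on the arm, 8 had a shared region at an end, against a background of 2.76%, and 4 of the 8 were tRNA genes. TRN-GTT2-5 had fold enrichments of 3.31 and 4.47, TRC-GCA2-3 had 3.51 and 4.05, and TRR-CCG2-1 had 3.99 in both replicates. The region of TRN-GTT2-5 at chr17:38752426-38752824 also lay at the start of the proteasome gene PSMB3. The snRNA gene LOC124904122, away from the U2 array at chr17:58659149-58659305, had 4.61 and 4.11. These genes were named after their values were seen.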

How the data were processed

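Peaks were analysed from the authors' deposited lists, 1 per library, for 2 ChIP-seq libraries of 1 group. The deposited columns hold a score, the fold enrichment as a linear ratio, the −log10 p and −log10 q (all at least 1.30 for q) and the summit offset. Per the submitters' processing notes, which state no roles, the tools included MACS2 2.2.7.1, Bowtie2 2.2.5 and cutadapt 1.18, and the build was GRCh38. A control library and the handling of reads with several matches are not given in the sources used here.

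Pileup and background were solved from fold enrichment and p. A whole-number pileup met the deposited p within 1e-04 in 100% of the arm's peaks, and reading the background as reads per 10 kb assumes calling without a control. Total depth is not in the files. Overlapping peaks were joined, and each region took its strongest peak per library. Gene positions (RefSeq, GRCh38.p14, 1 row per gene) gave occupancy within 1 kb of either annotated end or inside; a gene takes its end region, or the inside region where none lies at an end, whose fold enrichment ranked highest on average over both libraries. Promoters came from RefSeq, with 903 genes of the arm matched.

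Members and the 17 gene lists were chosen with earlier results of these data known, and no test was run. Named genes were those occupied in the window from 43 to 44 Mb or at ends in the 5 densest windows (8 with ties), the 15 highest gene ends, the 10 highest regions, the 4 highest of each list and 16 fixed genes. Some genes that the rule would name are not reported here. CDC6, CUEDC1, PRKCA, SLC39A11, HELZ, SKA2, PRR11, RPL23A, PSMD11, PSMC5, DCAF7 and CCDC47 were named after their values were seen. So were all other genes named without a shared region and the promoters printed. Python 3.11.15, pandas 2.3.3, numpy 2.4.6, scipy 1.17.1 and matplotlib 3.10.9 were used, and the scripts were tested on simulated data. Alternatives were stricter peaks, stricter overlap, other gene windows, and leaving out a replicate or the U2 array.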

Additional observations from a re-analysis of the deposited data

How the results depend on the processing

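Of 56 alternative values over 8 results, 26 stayed within 1.5 times the reported count or within 1 SD and 30 moved. The SD is that between replicates, so leaving out either replicate keeps peaks per Mb within it by construction. The 43 to 44 Mb window is the densest window in most settings, so its count mostly enters under both results. With −log10 q of at least 5, peaks per Mb went from 18.5 (mean of the replicates) to 7.69, shared regions from 643 to 264, the 43 to 44 Mb window and the densest window from 38 to 22, genes occupied at an end from 114 to 50, at an end or inside from 272 to 136, and list members at an end from 67 to 30. With fold enrichment of at least 5 these became 1.43 peaks per Mb, 32 shared regions, 3 in that window, 4 in the densest, 4, 17 and 2 genes, and mean sharing went from 63.2% to 39.8%. Fewer peaks entered by construction. A reciprocal overlap of 50% gave 48.7% sharing. Summits within 100 bp gave 397 shared regions, 38.1% sharing, 19 in both windows, 74 genes at an end and 44 list members. Leaving out either replicate, which counts all peaks of the other, gave 925 to 1159 regions, 44 to 60 in the window and in the densest window, 154 to 176 genes at an end, 342 to 375 at an end or inside, and 78 to 92 list members. A 3 kb end window gave 208 genes and 108 list members, and starts alone gave 74 genes. Without the U2 array the window held 17 regions. Leaving the array out of the whole arm, an alternative chosen after seeing the data, gave 622 shared regions and a densest window of 26. No paired analysis was possible because there was only 1 group. With a median pileup of 22, single fold enrichments have wide counting error.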
